A study of Mus musculus with 12 samples.

Results

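Expression arrays of heart, lung and liver from p53KO (p53-/-) mice were compared with the arrays of the same tissues from p66KO (p66-/-) mice, which makes 6 of the 12 arrays of the series. Mice lacking p53 have lost a tumour-suppressing transcription factor, and p66KO mice have lost p66Shc, the longest product of Shc1. The mice of all groups were Sv/129 and 2 months old, no agent was given, and total RNA came from freshly isolated organs. Both deletions are present in every cell of the mouse, so they are not restricted to a cell type. A single array was made for each tissue and genotype, from a pool of 4 mice. The methods of the study state this pool for thymus, liver and heart and do not name lung there. Whether the same 4 mice gave every organ of a genotype is not stated, so the 3 tissue pairs may stand for 1 pool of animals per genotype, and the spread between tissues is not a spread between animals. The comparison needs no wild type (WT) array. Apart from the choice of each gene's probe set and some alternative fits, the WT and thymus arrays are given beside the results as descriptions.

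Values are log2 signals of probe sets, and a difference is the p53KO signal minus the p66KO signal in one tissue, so that 1 stands for 2-fold. Each of 18193 genes was taken at its probe set of highest mean signal. A gene counted as different when its sign was the same in heart, lung and liver and its smallest absolute difference reached 1.5-fold, and genes were ranked by that smallest difference. The organ labels fit the defining markers. Cardiomyocyte genes had a median signal of 13.16 and 12.77 on the p53KO and p66KO heart arrays against 8.16 or less on the other 4, surfactant and other lung epithelial genes 13.30 and 13.14 on the lung arrays, and hepatocyte genes 14.00 and 14.11 on the liver arrays. Hepatocyte genes also read 9.61 on the p66KO lung array and 7.07 on the p53KO lung array. The p53KO and p66KO arrays correlated with r = 0.986 in heart, 0.975 in lung and 0.993 in liver over all probe sets, a description only. The controls for 18S ribosomal RNA read higher on p53KO, by 0.39 in heart, 3.84 in lung and 0.38 in liver.

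p53 and p66Shc meet in the response to oxidative stress. p53 is a transcription factor that is held low by Mdm2 until DNA damage or another stress stabilizes it, and it then switches on genes of cell-cycle arrest, repair and apoptosis such as Cdkn1a, Ccng1 and Zmat3. p66Shc shares its exons with the shorter Shc1 adaptors but carries an extra amino-terminal region, and it raises the level of hydrogen peroxide in mitochondria. Setting the knock-outs against each other asks which transcripts part the loss of p53 from the loss of p66Shc in resting organs. The gene that led the ranking belongs to the circadian clock. In that clock, Clock and Arntl activate genes through E-boxes, Per and Cry proteins repress them, and the output factors Dbp, Tef and Hlf activate genes through D-boxes, where Nfil3 represses.

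The promoters of Dbp, Tef and Pfn1 are shown because Dbp and Pfn1 head the higher end of the ranking and Tef, in place 4 behind Klf13, encodes a factor related to Dbp. Sequences are from RefSeq (build GRCm38.p6), 300 bases running from 250 before to 50 after the annotated start, with CCAAT (or ATTGG on the other strand) and the E-box CACGTG in capitals. They are Dbp at chr7:45704997-45705296 (plus strand), Tef at chr15:81802423-81802722 (plus strand) and at a second start, chr15:81811164-81811463 (plus strand), and Pfn1 at chr11:70654601-70654900 (minus strand).

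Dbp: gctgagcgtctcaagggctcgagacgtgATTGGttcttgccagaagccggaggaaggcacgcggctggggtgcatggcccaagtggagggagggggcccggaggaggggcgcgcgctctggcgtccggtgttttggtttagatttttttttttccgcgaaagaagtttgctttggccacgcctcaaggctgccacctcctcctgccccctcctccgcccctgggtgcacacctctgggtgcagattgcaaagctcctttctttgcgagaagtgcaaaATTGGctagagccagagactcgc

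Tef: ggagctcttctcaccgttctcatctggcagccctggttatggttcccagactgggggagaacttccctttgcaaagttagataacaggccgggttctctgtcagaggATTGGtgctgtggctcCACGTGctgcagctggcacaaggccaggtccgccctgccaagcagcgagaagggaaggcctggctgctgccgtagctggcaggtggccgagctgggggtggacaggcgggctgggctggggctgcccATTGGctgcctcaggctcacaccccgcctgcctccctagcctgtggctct

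Tef, second start: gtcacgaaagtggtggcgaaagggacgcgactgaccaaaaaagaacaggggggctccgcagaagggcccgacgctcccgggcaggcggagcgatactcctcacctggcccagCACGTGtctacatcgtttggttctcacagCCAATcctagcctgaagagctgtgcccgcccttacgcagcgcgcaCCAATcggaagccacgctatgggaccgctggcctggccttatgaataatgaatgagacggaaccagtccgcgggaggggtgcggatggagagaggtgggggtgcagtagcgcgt

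Pfn1: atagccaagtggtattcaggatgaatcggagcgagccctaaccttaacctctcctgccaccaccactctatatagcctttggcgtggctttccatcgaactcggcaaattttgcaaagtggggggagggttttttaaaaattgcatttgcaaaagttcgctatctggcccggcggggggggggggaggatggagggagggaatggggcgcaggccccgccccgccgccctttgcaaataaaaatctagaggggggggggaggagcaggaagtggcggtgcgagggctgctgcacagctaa

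CCAAT boxes stood 2 times in the Dbp window and 2 times in each Tef window, and CACGTG stood 1 time in each Tef window and not in that of Dbp or Pfn1. Of 27025 promoters of this length, 37.9% hold CCAAT on either strand, 7.24% hold CACGTG, and 8.37% hold the p53 half-site. Among the 15 genes highest in p53KO, 13 had a promoter in the table; CCAAT stood in 7 of them, CACGTG in 2 (Tef and Insig1) and the p53 half-site in 1 (Ddost). Among the 15 lowest, 11 had a promoter, with CCAAT in 5, CACGTG in 2 (Naa15 and Prrc2c) and the half-site in 0. CACGTG was chosen for the search after the values had been seen. Such matches describe the letters and are not evidence of binding.

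Of 18193 genes, 2814 had a higher signal in p53KO than in p66KO in all 3 tissues (15.5%) and 2535 a lower one (13.9%). At 1.5-fold or more in every tissue, 5 genes were higher (0.0275%) and 12 lower (0.066%). The higher genes were Dbp, Pfn1, Klf13, Tef and Ddost. The lower genes were Slc15a2, Naa15, Usp45, Tra2a, Crem, Naf1, Igha, Crim1, Prrc2c, Bpnt2, 5730455P16Rik and Npepps. Ddost (smallest difference 0.59) was the last inside the higher threshold and Pam (0.55) the first outside; on the lower side these were Npepps (-0.59) and Arhgap18 (-0.57). At a lower threshold, a smallest difference of 0.322, the counts were 40 and 103. Fitted over the 6 arrays with tissue as a block, limma called 2 genes at a Benjamini-Hochberg adjusted p under 0.05 (0.011% of genes), Dbp and Pfn1, both higher in p53KO, while 1372 genes had an unadjusted p under 0.05. The ranking and this fit use the same differences, so neither checks the other.

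**Figure D1:**
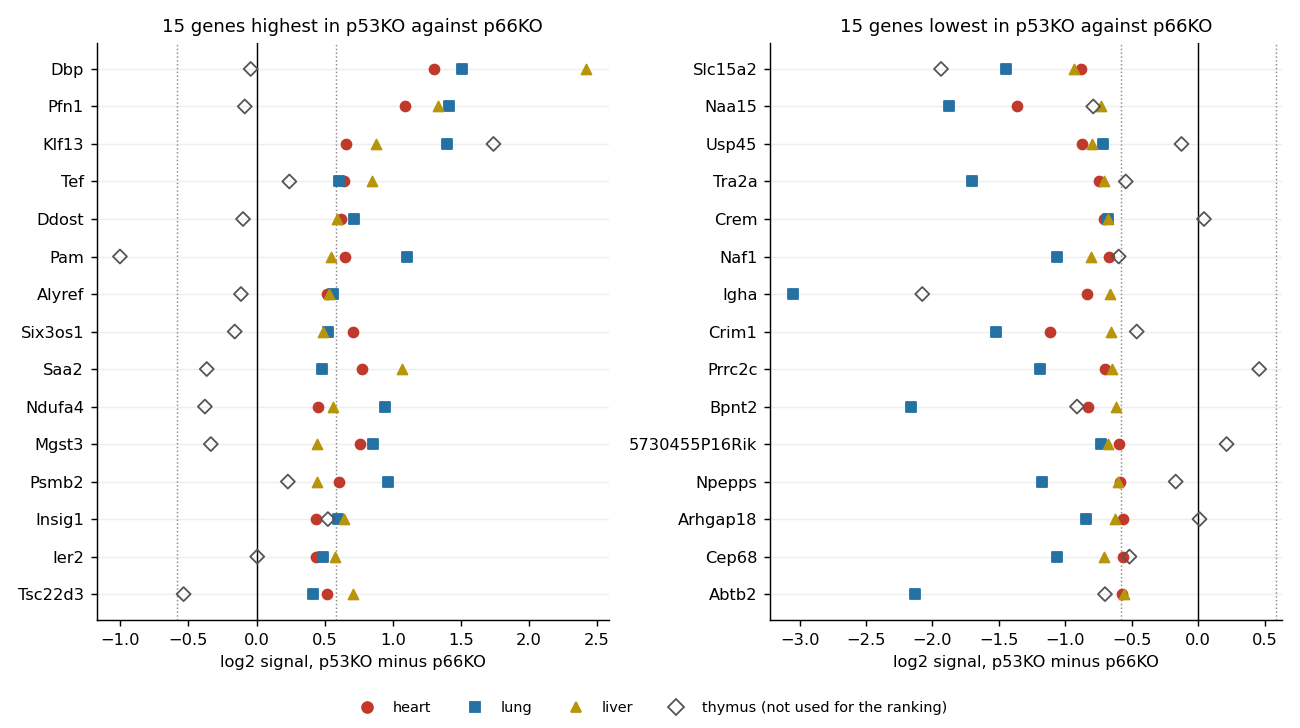
Difference of log2 signal, p53KO minus p66KO, for the 15 genes highest (left) and 15 lowest (right) in all 3 tissues, with 1 point per tissue pair. Dotted lines mark 1.5-fold and hollow diamonds the thymus pair, whose differences were not ranked. Dbp reaches 2.42 in liver, Igha -3.05 in lung, and the thymus point of Pam lies at -1.0035.

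Dbp, the D-box activator whose transcript is among the strongest daily rhythms of liver, headed the list. Its signal was 8.38 on the p53KO heart array and 7.08 on the p66KO heart array, 8.92 against 7.41 in lung, and 8.95 against 6.53 in liver. Every p53KO array was above every p66KO array. The mean difference was 1.74 ± 0.59 (SD, n = 3 tissue pairs), or 3.35-fold (limma, adjusted p = 0.0118). Its other probe set gave 0.65 in heart, 1.12 in lung and 1.76 in liver. The WT signal was 8.60 in heart, above both knock-outs, and 8.17 in lung and 7.99 in liver, between them. WT was nearer to p53KO in all 3 tissues, which held for 1 of the 5 higher genes and for 1397 of all 18193.

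Tef, the related D-box activator, read 10.12 against 9.48 in heart, 11.05 against 10.44 in lung and 10.13 against 9.28 in liver (p53KO first). The p53KO array was the higher one in each tissue, though the p66KO lung array exceeded the p53KO heart and liver arrays. Its mean difference was 0.70 ± 0.13 (SD, n = 3; limma, adjusted p = 0.342), and its other probe sets agreed in sign in all 3 tissues, down to 0.05. Hlf, the other factor of this family, had 0.00 in heart, -0.06 in lung and 0.38 in liver.

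Around Dbp and Tef, the clock genes did not all lie on one side. Of 19 clock genes measured, 10 were higher in all 3 tissues, against 15.5% of all genes, and 2 were lower, against 13.9%. The 10 include Dbp and Tef, which the ranking had selected for being higher in all 3, so the count is not independent of it. Among the negative limb, Per1 differed by 0.30 in heart, 1.12 in lung and 0.83 in liver, Per2 by 0.25, 0.57 and 0.30, and Per3 by 0.29, 1.17 and 0.34. Nr1d1, which encodes the repressor REV-ERBα, differed by 0.31, 0.71 and 0.70, and Bhlhe40, another repressor, by 0.20, 0.35 and 0.53. Usp2, Cry2 and Bhlhe41 were also higher in each tissue, by 0.12 to 0.35. None of these passed limma (Per1, adjusted p = 0.344).

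On the lower side stood Cry1, the repressor that peaks late in the cycle, and Nfil3, the D-box repressor. Cry1 read 4.74 against 5.52 in heart, 4.70 against 6.12 in lung and 6.17 against 6.71 in liver, a difference of -0.78, -1.41 and -0.54. It missed the 1.5-fold threshold only in liver. Nfil3 differed by -0.35, -0.30 and -0.47. Arntl, the activator, had 0.02 in heart but -0.84 in lung and -0.69 in liver, and its partner Clock lay between -0.04 and 0.12. The list's median difference was 0.20 in heart, 0.19 in lung and 0.30 in liver, beside 0.03, 0.06 and -0.02 over all genes, and -0.11 in thymus, where all genes had -0.02. In lung it was 0.33 with quantile normalization repeated and 0.09 with arrays centred on their median. The hour at which the organs were taken is not given in the sources used here.

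**Figure D2:**
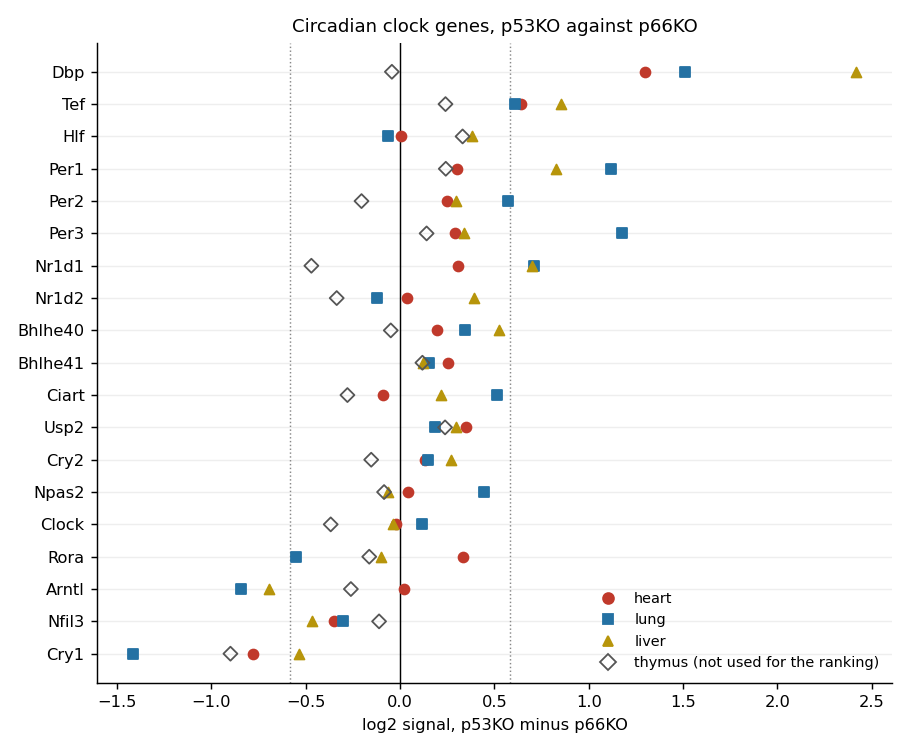
Difference of log2 signal, p53KO minus p66KO, for the 19 clock genes measured, with 1 point per tissue pair and hollow diamonds for thymus; dotted lines mark 1.5-fold. Dbp, Tef and the Per genes lie right of 0 in heart, lung and liver, while Nfil3 and Cry1 lie left of 0.

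Pfn1, which encodes profilin, the protein that feeds actin monomers to growing filaments, came next. Its signal was 9.40 on the p53KO heart array against 8.31 on the p66KO heart array, 10.24 against 8.83 in lung and 10.13 against 8.79 in liver. All p53KO arrays exceeded all p66KO arrays. The mean difference was 1.28 ± 0.17 (SD, n = 3), or 2.43-fold (limma, adjusted p = 0.0118). WT read 8.75, 8.48 and 8.74 in heart, lung and liver and lay nearer to p66KO in each. Pfn1 has 1 probe set, so no other one checks it. In RefSeq it lies on chromosome 11, as does the p53 gene, with 71 protein-coding genes between them.

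The calls of Dbp and Pfn1 depended on the fit. They were lost with arrays centred on their median (adjusted p = 0.0673 for both), with cyclic loess (0.377 for both), with the WT arrays in the fit (0.099 for Dbp and 0.122 for Pfn1) and with thymus added (0.283 for both), and Dbp alone was lost with the mean of its probe sets (0.201) or without sets ending in _x_at or _s_at (0.117). Without heart, Dbp had an adjusted p of 0.0447 and Pfn1 of 0.110, and with 3 pairs an exact sign-flip test cannot go below p = 0.25.

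Klf13, a Krüppel-like transcription factor, read 10.34 against 9.68 in heart, 11.81 against 10.41 in lung and 9.87 against 8.9969 in liver. The mean difference was 0.98 ± 0.38 (SD, n = 3; limma, adjusted p = 0.213), and the WT array was nearer to p66KO in heart and lung and nearer to p53KO in liver. Another Klf13 probe set went the other way in liver, at -0.23. Ddost, a subunit of the complex that attaches N-linked sugars in the endoplasmic reticulum, differed by 0.62, 0.72 and 0.59, a mean of 0.64 ± 0.06 (SD, n = 3; limma, adjusted p = 0.344).

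The genes ranked 6 to 15 on the higher side fell short of 1.5-fold in at least 1 tissue. They were Pam, which amidates peptide hormones, the mRNA export factor Alyref, the noncoding Six3os1, the acute phase gene Saa2, the respiratory chain subunit Ndufa4, the glutathione transferase Mgst3, the proteasome subunit Psmb2, the sterol sensor Insig1, the immediate early gene Ier2 and the glucocorticoid-induced Tsc22d3. Their smallest differences ran from 0.42 (Tsc22d3) to 0.55 (Pam). Saa2 had its highest level in liver, 8.76 on p53KO and 7.70 on p66KO, both below the WT liver array at 12.77. Alyref was the most even at the probe set used, at 0.51, 0.56 and 0.53, but its other probe set gave -0.04, 0.56 and 0.35. The other Mgst3 probe set gave 0.46, 0.62 and -0.16. Of the 15 highest genes, 6 have several probe sets, and in 2 of these, Alyref and Mgst3, no other set was higher in all 3 tissues.

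Slc15a2, the peptide transporter PEPT2, led the lower side. Its signal was 6.09 on the p53KO heart array against 6.97 on the p66KO heart array, 8.07 against 9.52 in lung and 6.33 against 7.26 in liver. Each p53KO array was the lower of its pair, and the level of a tissue moved more than the level of a genotype. The mean difference was -1.09 ± 0.31 (SD, n = 3; limma, adjusted p = 0.0733). WT, at 6.55, 9.21 and 7.42, was nearer to p66KO in each tissue. Of its 2 other probe sets, 1 gave -0.18, -0.44 and 0.09 and the other -0.45, 0.10 and 0.33. The latter had a mean of 7.387 on the 6 compared arrays, against 7.375 for the set used. Chosen on these 6 arrays alone, Slc15a2 would not be called.

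Among the other lower genes, Tra2a and Naf1 act on RNA. Tra2a, a splicing regulator, read 6.36 against 7.11 in heart, 8.73 against 10.43 in lung and 7.92 against 8.63 in liver, a mean difference of -1.05 ± 0.56 (SD, n = 3; limma, adjusted p = 0.241). Its WT arrays were above both knock-outs in all 3 tissues, at 8.05, 10.92 and 8.95. Naf1, which helps to assemble box H/ACA ribonucleoproteins, differed by -0.67, -1.06 and -0.81. Prrc2c, a proline-rich coiled-coil protein, differed by -0.70, -1.19 and -0.65.

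Naa15, Usp45 and Npepps modify or degrade proteins. Naa15, the auxiliary subunit of the NatA amino-terminal acetyltransferase, read 6.20 against 7.56 in heart, 6.45 against 8.32 in lung and 7.26 against 7.99 in liver. All p53KO arrays were below all p66KO arrays, and WT, at 8.09, 8.71 and 8.37, was above both. The mean difference was -1.32 ± 0.57 (SD, n = 3; limma, adjusted p = 0.0733). Usp45, a deubiquitinase, differed by -0.88, -0.72 and -0.80, and Npepps, the puromycin-sensitive aminopeptidase, by -0.59, -1.17 and -0.60.

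**Figure D3:**
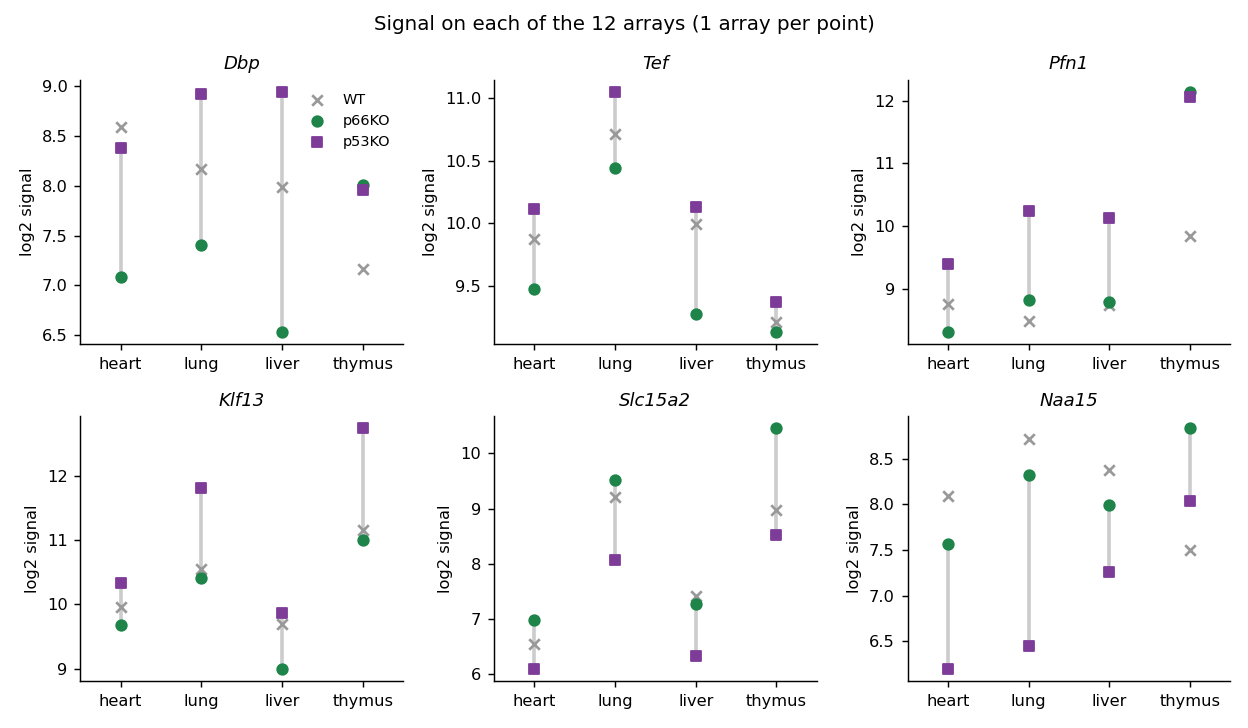
log2 signal of 6 of the ranked genes on each of the 12 arrays, by tissue and genotype, with a grey bar joining the p66KO and p53KO points of a tissue; 1 point is 1 array, so no error can be drawn. Pfn1 is highest on the p53KO array in heart, lung and liver but not in thymus, and Naa15 is lowest there in heart, lung and liver.

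Crem, which encodes activators and repressors of the cAMP response, was the most even of the lower genes at the probe set used. It differed by -0.71 in heart, -0.68 in lung and -0.68 in liver (mean -0.69 ± 0.02, SD, n = 3, and limma adjusted p = 0.342). A Crem probe set of similar mean signal (6.80 against 6.83) gave -0.23, 0.13 and -0.57. The only other one lower in all 3 tissues gave -0.15, -0.12 and -0.15, at a mean signal of 3.90. Crim1, a transmembrane protein that binds bone morphogenetic proteins, differed by -1.12, -1.52 and -0.66, and Bpnt2, a phosphatase of the Golgi, by -0.83, -2.16 and -0.62. The transcript 5730455P16Rik, of which no role is given here, had -0.59, -0.73 and -0.68. Next below the threshold came Arhgap18, the centrosomal Cep68, and Abtb2, with smallest differences of -0.57, -0.56 and -0.56.

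Igha, the heavy chain of immunoglobulin A, had the widest spread. It read 7.95 against 8.79 in heart, 9.05 against 12.09 in lung and 7.62 against 8.29 in liver, so that the p66KO lung array stood above the other 5. The mean difference was -1.52 ± 1.33 (SD, n = 3; limma, adjusted p = 0.342), and all 3 of its probe sets were lower in every tissue. The WT array was nearer to p53KO in 2 of the 3 tissues, among them lung, where it read 10.07. Jchain, which joins the units of secreted immunoglobulin A and M, differed in the same direction, by -1.93, -2.88 and -0.36. On the lung arrays Jchain read 8.48 on p53KO, 11.36 on p66KO and 8.80 on WT. Ighm had -0.92 and -2.05 in heart and lung but 0.52 in liver. Of 17 B cell and plasma cell genes measured, 2 were lower in all 3 tissues and 1 was higher, 17.6% of one sign beside 29.4% of all genes, and the list's median signal was 6.63 on p53KO against 6.71 on p66KO in heart, 7.20 against 7.51 in lung, and 6.74 against 6.44 in liver. In RNA from whole organs, a different number of cells of a type and a different amount of RNA per cell cannot be told apart, whichever array differs.

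The probe sets of a gene often disagreed on the lower side. Of the 12 lower genes, 11 have more than 1 probe set, and in 5 of these no other probe set was lower in all 3 tissues: Slc15a2, Tra2a, Bpnt2, 5730455P16Rik and Npepps. Their 28 further probe sets included 8 of the same sign in every tissue and 2 of the opposite sign in every tissue, of which 1 is a Naa15 probe set with 0.47 in heart, 0.59 in lung and 0.41 in liver. When probe sets were averaged within a gene, 3 genes were called lower, of which 2 were among the 12 (Igha and Naf1). Of the 5 higher genes, Dbp, Klf13 and Tef have more than 1 probe set, and each had another that agreed in all 3 tissues.

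The differences were widest in lung. Of the 12 lower genes, 10 had their largest absolute difference there (83.3%), as did 3 of the 5 higher genes and 53.9% of all genes. Without lung, the same rule gave 13 higher and 15 lower genes, a count that cannot fall below that of the 3 tissues since it asks for fewer. Lung is also the pair in which the 18S control probe sets differed by 3.84 and the 3' to 5' log2 ratio of the Gapdh control by -0.66, beside -0.07 in heart and -0.08 in liver. The same ratio of the actin control did not set lung apart. It read 0.36 on p53KO against 0.71 on p66KO in heart, 0.96 against 1.17 in lung and 1.62 against 1.39 in liver. The part of these differences in the lung values was not tested.

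The thymus pair was set beside the ranking. Its differences were not ranked, though its signals helped to choose each gene's probe set. Of the 5 higher genes, 2 were higher in p53KO thymus too (Klf13 at 1.74 and Tef at 0.24), where 47.8% of all genes were higher. Dbp had -0.04, Pfn1 -0.09 and Ddost -0.10. Of the 12 lower genes, 9 were lower in thymus, where 52.2% of all genes were lower, and 5 reached 1.5-fold against 6.46% of all genes. These were Igha (-2.08), Slc15a2 (-1.94), Bpnt2 (-0.91), Naa15 (-0.79) and Naf1 (-0.60). At the lower threshold of 0.322, 23 of 40 higher genes and 88 of 103 lower genes had the same sign in thymus. The thymus arrays may come from the same mice, and their 18S control probe sets differed by 4.33, so that thymus and lung are alike in this; its part in the result was not tested.

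Relative to WT, the higher and lower genes lay differently. For the 12 lower genes, the WT array was nearer to p66KO in 31 of 36 tissue comparisons (86.1%), and in all 3 tissues for 8 genes. Over all genes, WT was nearer to p66KO in 57.9% of comparisons, and in all 3 tissues for 19.8%. For the 5 higher genes it was nearer to p66KO in 8 of 15 comparisons. These are descriptions from single arrays, without a test.

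The median of the chaperones of the heat shock list lay below 0 in each tissue, while no member reached 1.5-fold in all 3 or passed limma. Of 19 heat shock genes, 13 were lower in all 3 tissues and 0 higher, beside 13.9% and 15.5% of all genes, and 5 were higher in heart. Their median difference was -0.18 in heart, -0.49 in lung and -0.27 in liver, and the lung value was -0.26 with quantile normalization repeated. Hsp90aa1, the inducible HSP90, read 9.84 against 10.33, 11.65 against 12.55 and 10.68 against 11.47 in heart, lung and liver, and Hspa1b, the inducible HSP70, 7.21 against 7.63, 7.86 against 9.81 and 8.46 against 9.55. On the WT arrays both were higher than on either knock-out in every tissue, with Hspa1b at 10.58, 12.22 and 11.09, although Hsp90aa1 in lung (12.56 on WT) was level with p66KO. Hsph1, a partner of HSP70, differed by -0.20, -1.22 and -0.52.

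The genes of the unfolded protein response serve folding in the endoplasmic reticulum. Of 25 measured, 13 were lower in all 3 tissues and 3 higher, beside 13.9% and 15.5% of all genes, and none passed limma. The list's median was -0.04 in heart, -0.31 in lung and -0.13 in liver, and the lung value was -0.0097 with quantile normalization repeated and -0.07 with cyclic loess. Among those lower were the chaperones Hspa5 (-0.43, -0.86 and -0.30) and Hsp90b1 (-0.65, -0.82 and -0.13), the ubiquitin ligase Syvn1 (-0.37, -0.98 and -0.49) and the secreted factor Manf (-0.43, -0.32 and -0.32). The 3 higher genes were Herpud1, Trib3 and Chac1, with differences of 0.06 to 0.37.

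Of 42 p53 activated targets measured, 4 were higher and 9 lower in all 3 tissues, beside 15.5% and 13.9% of all genes. Both directions together make 31.0% of one sign beside 29.4% of all genes, a share that hides the direction. None reached 1.5-fold in each tissue. Cdkn1a, which encodes the cell-cycle inhibitor p21, had -0.18 in heart, -0.25 in lung and -1.01 in liver, where it read 8.07 on p53KO, 9.08 on p66KO and 9.28 on WT. Zmat3, an RNA-binding target, had -0.36, -0.38 and -0.21 (limma, adjusted p = 0.679). Ccng1 had 0.00, -0.77 and -0.43 and Mdm2 0.07, -0.58 and -0.30. The list's median was 0.02 in heart, -0.19 in lung and -0.05 in liver. The p53 transcript itself was not analysed here.

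Shc1 read 8.91 on p53KO against 9.37 on p66KO in heart, 9.09 against 9.83 in lung, and 9.31 against 9.14 in liver. The p66KO array was thus not the lower one in heart or lung, but no source used here places its probe sets inside the deletion, which leaves the genotype unchecked. Of 10 Shc adaptors and partners, 2 were lower and 0 higher in all 3 tissues, 20.0% of one sign beside 29.4% of all genes. These were Sos2, the Ras exchange factor, with -0.63, -1.45 and -0.26, and Shc4 with -0.33, -0.01 and -0.27.

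Single tissues were also compared at a threshold of 2-fold. The p53KO heart array had 26 genes above p66KO (0.143%) and 26 below it (0.143%). In lung, 43 genes lay above (0.236%) and 572 below (3.14%), and in liver 19 above (0.104%) and 20 below (0.11%). These counts have no replicate check. In heart, genes of antigen presentation were higher: the 9 MHC class I and II genes had a median of 0.62, beside 0.01 in lung and -0.06 in liver, with Cd74 at 10.50 against 9.50 and H2-Eb1 at 10.14 against 9.18. With quantile normalization repeated these medians were 0.67, 0.27 and 0.02, and with cyclic loess 0.61, 0.26 and 0.03, so the sign in liver depends on the scaling, as does that in lung, which was -0.09 with arrays centred on their median. Lists of endothelium (0.28), collagens and matrix (0.24), myeloid cells (0.24) and smooth muscle and fibroblasts (0.22) had medians above that of all genes in heart (0.03) at the same time; their part in the MHC values was not tested.

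In liver, some fasting and metallothionein genes were named after their values were seen. The 21 glucocorticoid and fasting genes did not lie on one side, with 11 higher, 10 lower and a median of 0.05. Of them, 5 were 2-fold or more lower in p53KO liver, beside 0.11% of all genes: Cyp4a14, a fatty acid hydroxylase (7.79 against 10.21), the pyruvate dehydrogenase kinase Pdk4 (5.98 against 7.31), Igfbp1, an insulin-repressed binding protein (9.74 against 10.94), the acyl-CoA thioesterase Acot1 (7.57 against 8.65) and Cdkn1a. The metallothioneins Mt1 (10.57 against 8.47) and Mt2 (10.06 against 8.28) were higher in p53KO liver, and both were higher still on the WT liver array, at 12.55 and 12.87. In heart the pair differed by 0.30 and 0.78, and in lung by 0.60 and -0.16. Of 19 skeletal muscle genes, 5 were 2-fold or more higher in p53KO liver and 0 lower, beside 0.104% and 0.11% of all genes. The median of that list in liver was 0.46, and its mean signal was 7.19 on p53KO, 6.62 on p66KO and 7.34 on WT.

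In lung, transcripts of other organs were among the lower ones. Of 20 hepatocyte genes, 16 were 2-fold or more lower in p53KO lung, a cut that 3.14% of all genes met. Their median there was -2.42, beside -0.58 in heart and -0.04 in liver. In all 3 tissues together 13 of these 20 were lower and 1 higher (70.0% of one sign beside 29.4% of all genes), and 18 were lower in heart. Alb read 8.79 on p53KO, 12.30 on p66KO and 13.13 on WT lung, and Ttr 7.81, 11.87 and 12.55. Of 19 skeletal muscle genes, 6 were 2-fold or more lower, with a median of -0.88, and of 21 thymocyte genes 5 were, with Rag1 at 4.67 on p53KO, 7.22 on p66KO and 3.86 on WT lung. None of the 17 genes called across tissues is in these lists. The lists are short, and the part of RNA from other organs in the called genes was not tested.

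**Figure D4:**
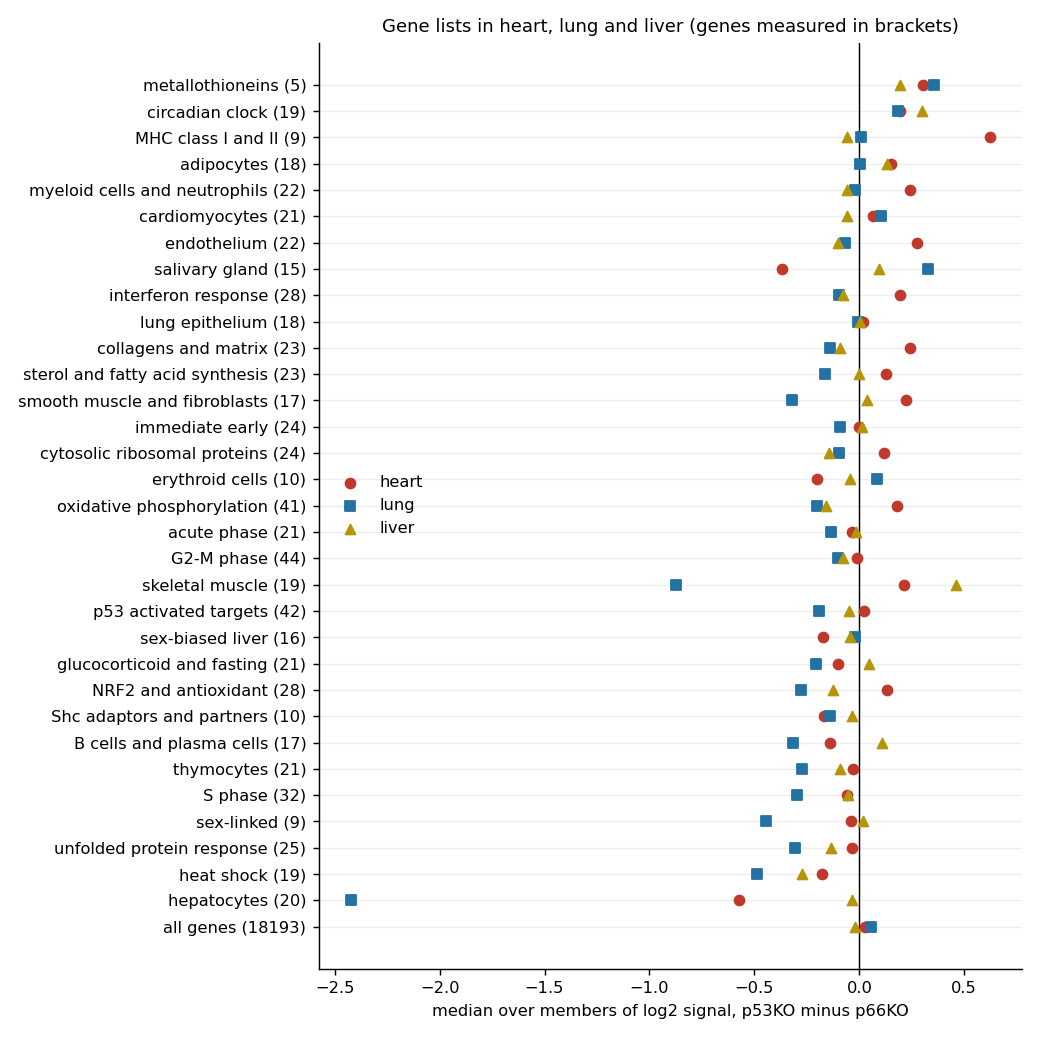
Median over the members of each of 32 gene lists, and over all genes (bottom row), of the log2 difference p53KO minus p66KO in heart, lung and liver. Hepatocyte genes lie at -2.42 in lung, MHC genes at 0.62 in heart, and the heat shock list lies left of 0 in all 3 tissues.

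In the remaining lists no gene reached 1.5-fold in every tissue. Over all genes, 15.5% were higher and 13.9% lower in all 3 tissues (29.4% of one sign), and the shares of one sign in the lists ran from 0.0% (myeloid cells) to 52.4% (glucocorticoid and fasting). Of one sign in all 3 tissues (higher and lower) were 2 and 11 of 44 G2-M genes, 1 and 5 of 32 S phase genes, 0 and 2 of 9 sex-linked, 4 and 3 of 24 immediate early, 3 and 4 of 28 antioxidant and 2 and 2 of 28 interferon response genes. The same counts were 3 and 7 of 21 for acute phase, 5 and 6 of 21 for glucocorticoid and fasting, 3 and 6 of 23 for sterol and fatty acid synthesis, 3 and 3 of 41 for oxidative phosphorylation, 2 and 3 of 24 for ribosomal protein, 4 and 1 of 23 for collagen and matrix and 1 and 0 of 5 for metallothionein genes. Among the G2-M genes, the proliferation marker Mki67 differed by -0.58, -1.03 and -0.44 and the condensin subunit Smc2 by -0.21, -1.09 and -0.27. For cell type markers the counts were 1 and 6 of 21 thymocyte, 0 and 2 of 19 skeletal muscle, 4 and 0 of 18 adipocyte, 0 and 0 of 22 myeloid, 0 and 2 of 10 erythroid, 4 and 1 of 21 cardiomyocyte, 4 and 3 of 18 lung epithelial, 3 and 0 of 22 endothelial, 2 and 0 of 17 smooth muscle and fibroblast, 4 and 1 of 15 salivary gland and 0 and 1 of 16 sex-biased liver genes. Tfrc, the transferrin receptor, was the erythroid list member nearest to the threshold, at -0.50, -0.76 and -0.75.

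By place in the genome, 1 of the 17 genes lies on chromosome 3, which carries Shc1 (Naa15; 5.06% of all genes lie there), and 3 lie on chromosome 11, which carries the p53 gene (Pfn1, 5730455P16Rik and Npepps; 8.0% of all genes). Of the 50 protein-coding genes on each side of the p53 gene, 87 were measured. In all 3 tissues 19 of these were higher and 11 lower, beside 15.5% and 13.9% of all genes. Both directions together make 34.5% of one sign beside 29.4% of all genes. None of the 87 reached 1.5-fold in each tissue, and their median difference was 0.08 in heart, 0.05 in lung and -0.0016 in liver. Pfn1, with 71 protein-coding genes between it and the p53 gene, lies outside this window and is not counted in it.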

How the data were processed

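Of 12 Affymetrix mouse expression arrays, the p53KO and p66KO arrays of heart, lung and liver were compared within tissue. The authors deposited log2 signals per probe set, made with RMA in Partek 6.5 according to the submitters' processing notes. RMA includes quantile normalization, so a shift shared by most genes cannot be seen. The values lay between 3.26 and 15.41, and no raw intensity was used. Array signals hold no counts, so the number of arrays limits the precision.

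Of 45101 probe sets, 64 were controls, 34945 had 1 symbol in the platform's probe table, 932 several and 9160 none listed there. Genes (18193) were taken at the probe set of highest mean over the 12 arrays, of which 1523 carry the suffix _x_at or _s_at, given to sets that may hybridise to related transcripts. The RefSeq table (GRCm38.p6) gave names, chromosomes and gene order; 34741 Entrez numbers matched and 0 symbols were updated. Probe sets of the p53 gene were not analysed here.

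limma 3.58.1 (R 4.3.3) was fitted to the 6 arrays with tissue as a block, leaving 2 residual degrees of freedom and 11.2 prior ones, and Benjamini-Hochberg adjusted over all genes; it was tested on simulated data. Its p treats tissues as independent. All else ran in Python 3.11.15, with pandas 2.3.3, numpy 2.4.6 and matplotlib 3.10.9. Named are the 15 genes highest and lowest by smallest difference, those passing limma, Shc1 and called or leading members of 32 lists; others were named after their values were seen. The comparison, its members and the lists were chosen with earlier results of these data known. Alternatives were the value of a gene, the normalization, brighter genes alone, other thresholds, each tissue left out, and other arrays in the fit.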

Additional observations from a re-analysis of the deposited data

Results flagged for a closer look

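Pam, the peptide-amidating enzyme, was higher in p53KO than in p66KO by 0.65 in heart, 1.10 in lung and 0.55 in liver, but differed by -1.0035 in thymus (6.45 on p53KO against 7.45 on p66KO), the opposite direction in each case. The difference between the tissues was not tested, since each rests on 1 pair of arrays. Cardiomyocyte markers had a median signal of 7.70 on the p66KO thymus array and 6.20 on the p53KO thymus array, and Pam itself had its highest signals on the heart arrays (10.26 and 10.91); the part of those markers in the Pam value was not tested.

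The 18S ribosomal RNA control probe sets, which lie outside the gene comparison, had a mean of 9.79 on the p53KO lung array, 5.94 on the p66KO lung array and 5.52 on the WT lung array, a difference of 3.84 between the knock-outs. On the heart and liver arrays of the knock-outs they differed by 0.39 and 0.38.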

How the results depend on the processing

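The 2 genes called by limma became 0 with arrays centred on their median, with cyclic loess, with thymus added, with the 9 arrays that include WT and with all 12 arrays, 1 with the mean of all probe sets or without probe sets ending in _x_at and _s_at, and 4 at an adjusted p of 0.1; repeated quantile normalization and brighter genes alone each gave 2, and a variance trend gave 3. Leaving out a tissue gave 2 to 162 genes, with 1 residual degree of freedom (2 without heart, 55 without lung, 162 without liver). The 5 higher genes became 2 with cyclic loess, 3 with the mean of probe sets, 40 at a smallest difference of 0.322, 2 at 2-fold and 1 with thymus added, and the 12 lower became 3 with the mean of probe sets, 103 at 0.322, 0 at 2-fold and 5 with thymus added. Leaving out a tissue gave 13 to 24 higher and 15 to 137 lower, since the rule then asks for fewer tissues (without heart 19 and 70, without liver 24 and 137). Within heart, the 2-fold counts of 26 and 26 became 41 and 41 with repeated quantile normalization and 15 and 13 in brighter genes. In lung they became 25 and 346 in brighter genes, and 358 lower with repeated quantile normalization, and in liver 12 and 11 in brighter genes; fewer genes are tested there. Of the 17 called genes, 64.7% had the same sign in thymus (2 of 5 higher and 9 of 12 lower). With repeated quantile normalization it was 87.5%, but of another set of called genes. That set held 5 higher and 11 lower genes, of which 9 lower ones were among the 12, so the percentages do not compare the same genes. Among list medians of 0.2 or more in size, the signs turned in lung for glucocorticoid and fasting genes (0.0474 with repeated quantile normalization), oxidative phosphorylation (0.0543 and, with cyclic loess, 0.0729), and in brighter genes for thymocytes (0.0022) and salivary gland (-0.43). None of the 17 called genes reversed under the normalizations and gene values tried, and Prrc2c alone lost its common sign, with the mean of probe sets. Where no reason is given above, the cause was not tested.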
